A study of Mus musculus with 2 samples.

Results

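The cells described here are epithelial cells from dissociated tumours, and whether each is a tumour cell or a normal cell was not tested. These cells have high summed expression of 8 genes, among them the chloride channel gene Cftr and the chloride uptake gene Slc12a2. They were selected on expression in 2 steps. A barcode with at least 500 genes, at least 3000 unique molecular identifiers (UMIs) and at most 25% mitochondrial UMIs passed an epithelial gate if Epcam, Krt8, Krt18 and Cldn7 together reached 8 UMIs per 10,000 and Ptprc, the pan-leukocyte gene, stayed under 1. Of the 4790 gated barcodes, pooled over the libraries, the top 8% by the mean of ln(1 + UMIs per 10,000) of Pdzrn4, Fstl4, Fut9, Cftr, Epha4, B4galnt3, Slc12a2 and Baiap2l2 were kept. This gave 383 cells (the members), 206 of 3041 gated cells in WT and 177 of 1749 in cKO, out of 16168 deposited barcodes.

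WT is the library of Mtch2fl/fl mice, whose Mtch2 alleles are floxed and whose label names no Cre. cKO is the library of Mtch2fl/fl VilCre mice, in which Cre recombinase is driven by the Villin promoter, active in the epithelium of the intestine. Both groups received AOM-DSS, azoxymethane as carcinogen and dextran sulfate sodium as inducer of colitis, and the tissue label of both is intestine. Fresh tumours from several mice of a genotype went into 1 pool, which was dissociated with trypsin and profiled on the 10x Genomics platform, so there was 1 library per genotype and no replicate. No test between genotypes could be made, and every interval is a 95% interval for counting error only, which leaves out variation between mice and tumours. The ages, sexes and numbers of mice are not given in the labels.

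The colonic crypt base holds Lgr5-expressing stem cells and proliferating progenitors, and cells mature as they move towards the surface. Crypt cells secrete fluid: the sodium, potassium and chloride cotransporter encoded by Slc12a2 loads chloride from the basolateral side, the channel encoded by Cftr lets it out at the apical side, and basolateral potassium channels such as Kcnq1 with its subunit Kcne3 sustain the driving force. Mature surface cells instead absorb salt and water and express keratin 20.

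Members had medians of 30778 UMIs in WT and 34095 in cKO, against 22679 and 36562 in the other gated cells. The WT members held 7544184 UMIs in all and the cKO members 7036831. The libraries shared 22 barcodes, 0.233% of those in WT and 0.327% of those in cKO, and none was a member in both libraries. Scrublet, a doublet caller, marked 3 WT and 1 cKO members, which stayed in, and 79 and 44 of the other gated cells. As a reference for free RNA, 17 WT and 143 cKO leukocyte-like barcodes (Ptprc at 2 UMIs per 10,000 or more, epithelial genes under 2) were used, with medians of 17953 and 12099 UMIs.

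The score had no gap at the threshold, and the members are its upper end by the choice of the top 8%. A top share of a score cannot show whether its cells are a cell type. The lowest member scored 0.786448 and the highest cell left out 0.786226. Within 10% of the threshold lay 107 members above it and 106 cells below it. The median score was 0.938 in WT members and 1.01 in cKO members, against 0.232 and 0.217 in the other gated cells. Members had UMIs of a median of 6 of the 8 genes in WT and 7 in cKO, against 2 in the other gated cells of each library, and all 8 genes were detected in 10 WT and 23 cKO members. Both Cftr and Slc12a2 were detected in 78.2% of WT and 79.1% of cKO members, and in 22.0% and 23.7% of the other gated cells. Cftr alone was detected in 78.2% and 80.2% of members, 24.3% and 25.3% of other gated cells and 0% and 1.40% of the leukocyte-like barcodes. With every cell thinned to 3000 UMIs, Cftr was found in 38.8% of WT and 38.4% of cKO members, against 7.51% and 5.60% of the other gated cells.

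The values of the 8 genes chose the members and are given as a description. Levels are UMIs summed over cells and scaled to the total UMIs of the same cells (CPM). Cftr stood at 201 CPM in WT members and 208 in cKO members, against 28.7 and 27.6 in the other gated cells and 0 and 0.843 in the leukocyte-like reference. Slc12a2 stood at 843 and 963 CPM in members, 251 and 260 in other gated cells, and 23.7 and 32.9 in the reference. These pairs were close in the 2 libraries: cKO over WT in members was 0.05 on the log2 scale (-0.06 to 0.15) for Cftr and, for Slc12a2, 0.19 (0.14 to 0.24) over all members but -0.08 in cells with Xist and no Y-linked transcript.

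Fut9 and B4galnt3 encode glycosyltransferases, of the fucose added in Lewis X and of N-acetylgalactosamine. Fut9 was at 234 CPM in WT members and 193 in cKO members, against 19.4 and 18.1 elsewhere in the gate. B4galnt3 was at 123 and 151 CPM, against 22.7 and 23.6. Epha4, an ephrin receptor, was at 223 and 207 CPM in members and 67.2 and 63.2 in the other gated cells. Baiap2l2, a membrane-bending protein of epithelial protrusions, was at 113 and 109 CPM, against 34.8 and 26.4. Fstl4, a follistatin-like secreted protein, was at 362 CPM in WT members and 523 in cKO members, against 32.0 and 27.7. The choice of members fixes that each of these genes is higher in them than in the other gated cells.

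Pdzrn4, which encodes a PDZ domain ring finger protein, differed most between the libraries among the 8 genes. It was at 41.8 CPM (37.3 to 46.6) in WT members and 212 (201 to 223) in cKO members, 2.34 higher on the log2 scale in cKO (2.17 to 2.52). In the other gated cells it was at 7.12 and 8.09 CPM. Its UMIs came from 23 of 206 WT members, of which 5 cells held 64.4%, and from 56 of 177 cKO members, of which 5 held 29.8%. The share of members with a Pdzrn4 UMI was thus 11.2% in WT and 31.6% in cKO. After thinning every cell to 3000 UMIs it was 6.31% and 23.2%, against 1.38% and 1.97% in other gated cells. The reference held no Pdzrn4 UMI, and a limit of 3 counts for 0 allows up to 8.88 CPM in WT and 1.26 in cKO.

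**Figure D1:**
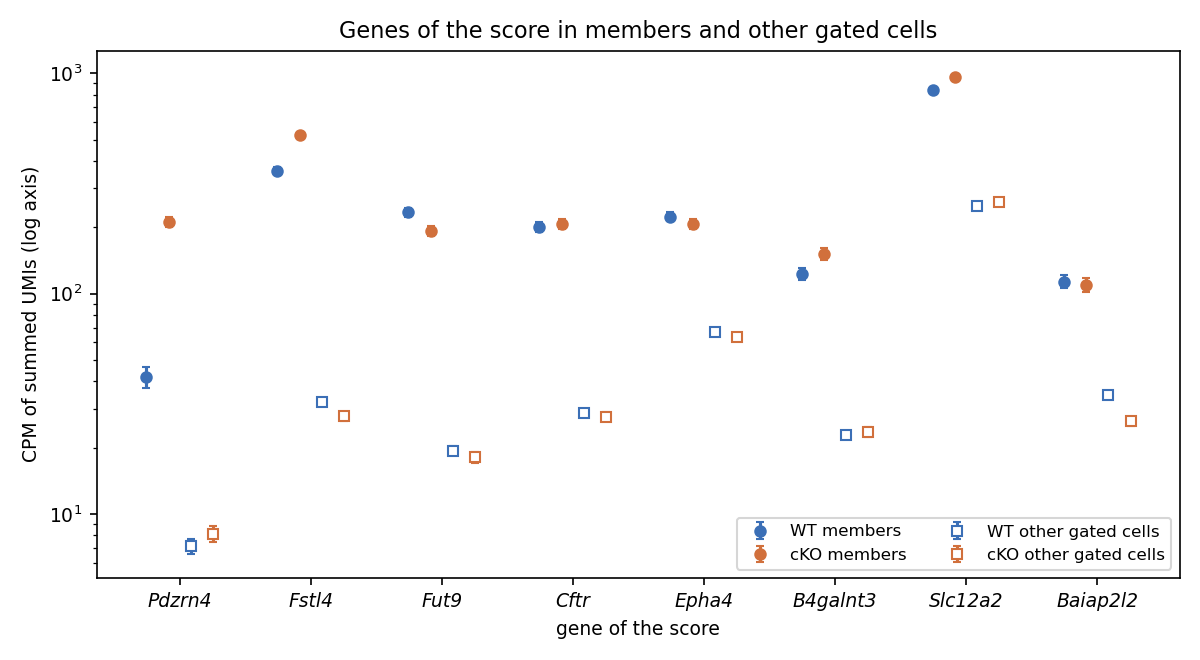
Levels of the 8 score genes as CPM of summed UMIs (log axis) in members (filled circles) and other gated cells (open squares) of WT (blue) and cKO (orange), with exact 95% Poisson intervals. Member levels of the 2 libraries differ most for Pdzrn4, at 41.8 CPM in WT and 212 in cKO, and next for Fstl4, at 362 and 523.

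The score genes lie on 6 chromosomes of the GENCODE M21 annotation of GRCm38, the build that the submitters name as mm10. Cftr spans chr6:18170687-18322768 and B4galnt3 chr6:120203073-120294559. Pdzrn4 spans chr15:92396881-92771819 and Baiap2l2 chr15:79258195-79285537. Slc12a2 spans chr18:57878678-57946821, Fstl4 chr11:52764634-53188538, Fut9 chr4:25609332-25800244 and Epha4 chr1:77367185-77515088. Mtch2 spans chr2:90847155-90866810. No isoform or position within a gene was read.

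Each gene was also read in the top 8% by the other 7 genes, so that it took no part in its own selection. The 7-gene choices shared 316 to 359 of the 383 cells. In them Fstl4, Fut9, Cftr and B4galnt3 were higher than in the other gated cells by 2.76, 2.93, 2.14 and 2.02 on the log2 scale in WT, and by 3.24, 3.12, 2.60 and 2.44 in cKO. Slc12a2 was higher by 1.59 and 1.73, Baiap2l2 by 1.52 and 1.92, and Epha4 by 1.17 and 1.23. For Pdzrn4 the ratio was -0.01 in WT, with 9.75 CPM in the chosen cells and 9.85 in the rest. In cKO it was 3.41, with 156 and 14.6 CPM. In WT, then, Pdzrn4 was level between cells high for the other 7 genes and the rest of the gate, while in cKO it was higher in the former.

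Genes outside the score were compared between members and other gated cells within each library. The members were chosen in these same cells, so no test was made. Of 9459 genes at 10 CPM or more in either set, 162 (1.71%) were at least 2-fold higher in members in both libraries and 315 (3.33%) at least 2-fold lower. The median log2 ratio over all measured genes was 0.07 in WT and 0.11 in cKO.

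Partner genes of chloride secretion were high in the members. Of the 23 measured genes of a secretion list without Cftr and Slc12a2, 11 were at least 1.5-fold higher and none lower in WT, and 9 and none in cKO. Of all measured genes, 8.46% were 1.5-fold higher and 9.13% lower in WT members, and 10.3% higher and 7.79% lower in cKO members. The list's median was 0.54 in WT and 0.44 in cKO. Kcnq1 was at 267 CPM in WT members and 321 in cKO members, against 107 and 94.03 in the other cells. Kcne3 was at 178 and 222 CPM, against 72.1 and 90.2. Kcnn4, a calcium-gated basolateral potassium channel, was at 53.6 and 52.6 CPM, against 19.3 and 22.5. Stk39, the kinase that phosphorylates and activates the Slc12a2 cotransporter, was at 100.2 and 114 CPM, against 42.4 and 38.7. Receptors that drive secretion were high too: Htr4, a serotonin receptor coupled to cyclic AMP, was at 53.4 and 65.5 CPM against 15.9 and 17.8, and Gucy2c, the guanylin receptor, at 76.5 and 87.0 against 41.1 and 44.3. The sodium pump subunit Atp1b1 differed little, with log2 ratios of 0.24 and 0.23.

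Crypt-base stem and Wnt target genes went in both directions. Of 32 measured in WT members, 7 were 1.5-fold higher and 9 lower, with a median of 0.09. In cKO members the counts were 10 and 8 of 32 and the median was 0.24. Lrig1, a restrainer of ErbB receptors that marks crypt stem and progenitor cells, led the genes higher in both libraries, at 184 and 233 CPM in members against 44.2 and 43.7. Lgr5 was at 331 CPM in WT members and 472 in cKO members, against 200 and 137. Smoc2 was at 211 and 278 CPM, against 121 and 111. The stem cell transcription factor gene Ascl2 was at 61.0 and 46.0 CPM, against 18.1 and 19.8, and Myb at 117 and 105, against 37.3 and 41.5. Axin2, a general target of Wnt signalling, was nearly level, with log2 ratios of 0.10 and 0.25.

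Among the 9 and 8 lower genes of this list were Wif1, Notum, Nkd1 and Dkk3, which encode inhibitors of Wnt signalling or a Dickkopf relative and were named with their values known. Wif1 was at 76.9 and 83.8 CPM, against 362 and 316 in the other gated cells. Nkd1 was at 143 and 109 CPM against 348 and 307, and Notum at 74.5 and 52.7 against 170 and 153. Of the 5 stem markers, Lgr5, Ascl2 and Smoc2 had ratios of 0.73 or more in both libraries, Axin2 had 0.10 and 0.25, and Olfm4 was at 0.133 and 0.142 CPM. Since the list as a whole goes both ways, the cells are called members here.

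Replication genes were higher throughout. Of 36 measured genes of the replication and G1/S list, 27 were 1.5-fold higher in WT members and 20 in cKO members, none was lower, and all 36 had a ratio above 0 in each library. The medians were 0.91 and 0.62. Mcm6, a subunit of the replicative helicase, was at 73.4 and 75.6 CPM against 31.8 and 40.2. Genes of G2 and mitosis were less far above the other cells: 6 of 33 were 1.5-fold higher and 29 had a ratio above 0 in WT, with a median of 0.30. In cKO 0 of 34 were 1.5-fold higher, with a median of 0.03, and none was lower in either library. Over the alternative settings given at the end, the G2 and mitosis median ran from -0.89 to 0.61 in WT and from -1.26 to 0.28 in cKO. Mki67 was at 124 CPM in WT members and 105 in cKO members, against 76.8 and 93.1. It was uneven over the clusters described below. Members of cluster 2, the largest group of members, had 55.2 and 37.9 CPM, below the other gated cells, and members of cluster 7 had 259 and 389. Cdca7, a Myc-responsive gene of proliferating cells, was at 120 and 127 CPM against 30.5 and 33.7.

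Genes of surface maturation were low. Of the surface absorption list, 11 of 22 measured genes were 1.5-fold lower in WT members and 15 of 24 in cKO members, and none was higher in either. The medians were -0.49 and -0.95. Krt20 was at 9.41 CPM in WT members and 4.83 in cKO members, against 169 and 151. Lypd8, a surface protein of colonocytes that keeps bacteria from the epithelium, was at 927 and 442 CPM against 3384 and 3424. Car1, a carbonic anhydrase of mature colonocytes, was at 42.7 and 9.66 CPM against 201 and 146.

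Paneth-type defence genes were low as well, with 11 of 13 measured genes 1.5-fold lower in WT and 7 of 11 in cKO. The medians were -2.78 and -1.49, but the cKO median was 0.33 among cells with Xist and no Y-linked transcript. The defensin gene Defa24 was at 37.8 and 37.5 CPM, against 616 and 536, and its WT ratio was 0.51 with the top 12% of cells. The gap was one of summed level, while shares of cells with a UMI were closer. Those shares come from cells of unequal depth and were not computed on thinned cells. Defa24 was detected in 69.9% of WT and 51.4% of cKO members, against 68.4% and 44.9% of the other gated cells. In the leukocyte-like reference it was at 62.2 and 27.0 CPM, and the part of free RNA in the member level was not tested. Goblet genes differed between the libraries. In WT members 8 of 16 were lower and 2 higher, with a median of -0.79. In cKO members 2 of 15 were lower and 4 higher, and the median was 0.34, but the WT median was above 0 with thinned cells, with the top 12% or without Epha4 in the score, and the cKO median was -2.88 among members of the largest cluster. The mucin gene Muc2 was at 126 CPM in WT members and 273 in cKO members, against 255 and 206, and 5 cells held 81.2% of its UMIs in WT members and 94.4% in cKO members.

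Interferon response and MHC class I genes were low in WT members, where 22 of 43 were 1.5-fold lower and 1 higher, with a median of -0.77. The cKO counts were 16 and 2 of 40, and the median was -0.40. Ifit1, an interferon-induced RNA-binding protein, was at 16.7 and 3.55 CPM against 116 and 86.1. H2-K1, an MHC class I heavy chain, was at 549 CPM in WT members against 752, and at 613 in cKO members against 532. Of 6 MHC class II genes measured in WT, 3 were 1.5-fold higher, with a median of 0.60, and of 4 in cKO none was, with a median of 0.31. Of the ferroptosis suppressor list, 2 of 27 genes were 1.5-fold lower in WT and 5 of 27 in cKO, and 1 was higher in each. Fth1, the ferritin heavy chain, was at 1182 and 1155 CPM in members against 3220 and 3593, and Prdx6, a peroxiredoxin, at 148 and 137 against 484 and 574.

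The remaining lists are given by their counts past 1.5-fold, WT before cKO. Eph receptors and ephrins had 3 of 10 genes higher and 1 lower in WT and 4 of 12 higher and 1 lower in cKO, with medians of 0.34 and 0.44, and Efna5, an ephrin, was at 37.6 and 52.2 CPM against 13.2 and 18.6. Notch pathway genes had 5 of 15 and 6 of 14 higher and 1 lower in each. Intestinal transcription factor genes had 5 of 24 and 7 of 23 higher, and 3 and 4 lower. Cdx1, an intestinal homeobox factor, was at 105 and 99.1 CPM against 52.1 and 56.4. E2F and pocket protein genes had 3 of 15 and 2 of 15 higher and none lower. Microvillus genes had 5 of 18 and 4 of 18 lower, and 0 and 2 higher. Regenerative or fetal-like genes had 4 of 24 and 7 of 24 lower, and 3 and 2 higher. Glycosyltransferase genes had medians of -0.02 and 0.11, iron handling genes 0.03 and -0.02, ferroptosis drivers 0.04 and 0.12, mitochondrially encoded genes 0.05 and 0.04, mitochondrial shaping genes -0.01 and 0.08, dissociation stress genes 0.01 and 0.02, and sterol and fatty acid synthesis genes -0.22 and -0.02.

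**Figure D2:**
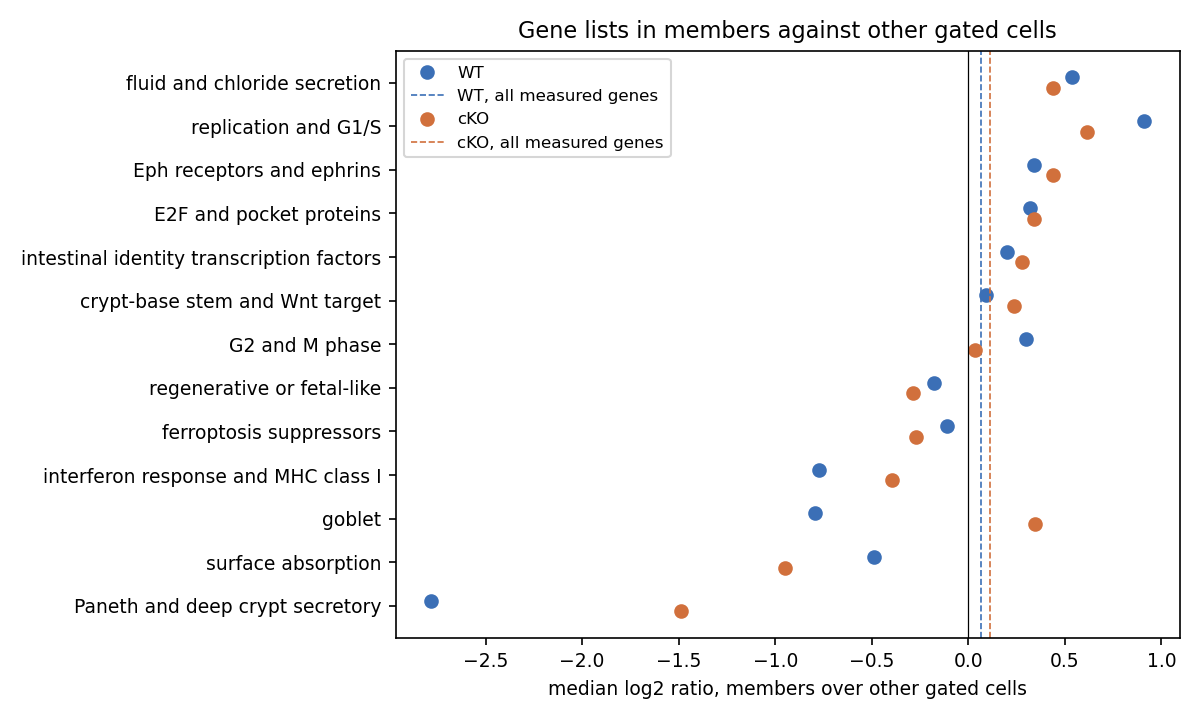
Median log2 ratio of members over other gated cells for 13 gene lists in WT (blue) and cKO (orange), without the genes of the score, with the median over all measured genes as dashed lines. Secretion and replication lists lie above both lines, absorption and Paneth lists below, and the goblet list lies on opposite sides in WT (-0.79) and cKO (0.34).

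By the rule for named genes, 25 genes were taken as highest in both libraries outside the score. Lrig1, Cdca7 and Htr4 came first, with log2 ratios of 2.05, 1.98 and 1.75 in WT and 2.41, 1.91 and 1.88 in cKO. Signalling genes among them were Ptprd, a receptor tyrosine phosphatase at 486 CPM in members of each library against 178 and 167, and Adgrl2, a latrophilin at 300.4 and 309 CPM against 122 and 99.9. Thrb, a thyroid hormone receptor, was at 147 and 132 CPM against 54.2 and 48.6. Nfatc2, a calcium-regulated transcription factor, was at 78.2 and 81.0 CPM against 29.0 and 25.3. Rgmb and Crim1, which encode proteins acting on bone morphogenetic protein signals, were at 75.4 and 62.5 CPM against 29.0 and 23.4, and at 216 and 129 CPM against 58.5 and 49.7.

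Enzymes and carriers made up much of the remainder. Trf, the gene of transferrin, was at 82.2 CPM in WT members and 130.2 in cKO members, against 31.6 and 45.5. B3gnt5, which starts lacto-series glycolipids, was at 90.3 and 103 CPM against 32.3 and 38.4. Sulf2, a heparan sulfate sulfatase, was at 68.5 and 88.4 against 23.2 and 33.4, and Pla2g4a, the cytosolic phospholipase A2, at 65.0 and 70.9 against 23.8 and 25.5. Cdo1, cysteine dioxygenase, was at 96.9 and 87.1 against 36.0 and 34.3, and Ckb, a creatine kinase, at 77.5 and 71.1 against 29.8 and 29.0. The other genes of this group, C2cd4b, Cotl1, Rasd1, Lmcd1, Ccser1, Bcl2l14, Xkr4, Myb, Kcnq1 and Kcne3, had log2 ratios of at least 1.30 in both libraries.

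The 15 genes lowest in members were led by Cadps, a vesicle priming factor, at 11.1 and 15.5 CPM against 291 and 327, and by Krt20. Secreted digestive and defence proteins followed: the lipase-related genes Pnliprp2 and Pnliprp1 had log2 ratios of -3.85 and -3.34 in WT and -3.84 and -3.68 in cKO, and the defensins Defa24, Defa17, Defa21 and Defa22 had ratios between -3.48 and -4.30 over both libraries, but above 0 among cKO cells with Xist and no Y-linked transcript. Detection of these defensins differed less: Defa17 was found in 28.2% of WT and 18.1% of cKO members, against 29.1% and 15.3% of other gated cells. For Defa22 the shares were 18.0% and 12.4%, against 20.0% and 9.29%, and for Defa21 10.7% and 5.65%, against 10.7% and 6.04%. The metallothionein gene Mt3 was at 32.7 and 9.95 CPM against 441 and 260. Ptn, the growth factor pleiotrophin, was at 11.9 and 25.4 CPM against 276 and 342, and Saa1, an acute-phase protein, at 17.9 and 16.5 against 215 and 409. Ly6m, Abcc2, Pcdh7 and Clca4b had ratios of -3.39 or lower.

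Across the whole range of the score, these genes behaved in different ways. Lrig1 in WT was at 26.2, 41.7, 87.6 and 184 CPM in cells ranked 0 to 50%, 50 to 75%, 75 to 92% and in members, and in cKO at 23.2, 43.0, 102 and 233. Krt20 went the other way, from 245 to 133, 49.3 and 9.41 CPM in WT and from 211 to 126, 26.2 and 4.83 in cKO. Lgr5 went in no single direction below the threshold, at 215, 182 and 190 CPM in WT and 137, 131 and 149 in cKO, and was highest in members, at 331 and 472. Muc2 had its highest value in the band just below the members, at 451 CPM in WT and 430 in cKO.

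**Figure D3:**
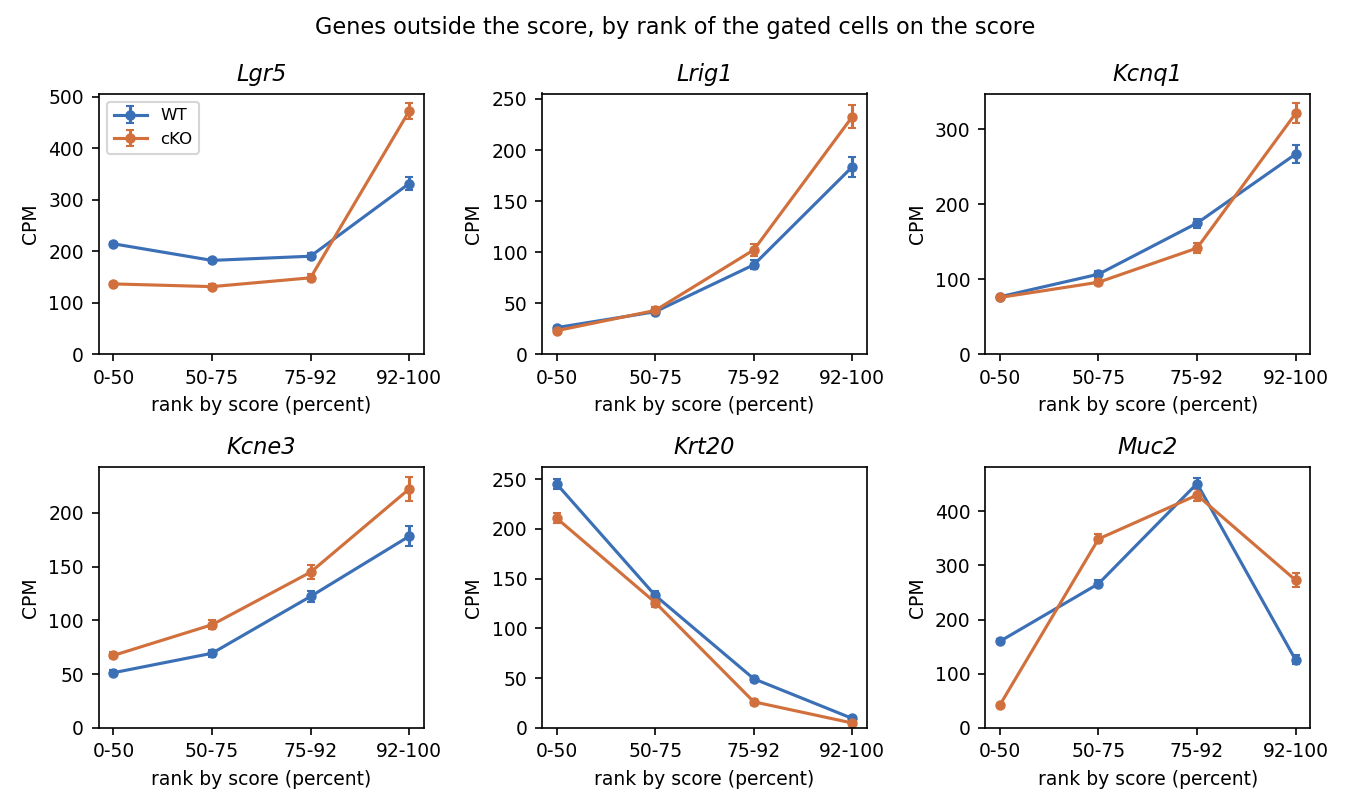
CPM of 6 genes outside the score in gated cells grouped by rank on the score, in WT (blue) and cKO (orange), with exact 95% Poisson intervals. Lrig1, Kcnq1 and Kcne3 are higher in each successive band, Krt20 is lower in each, Lgr5 is highest in the top 8% and Muc2 is highest between 75% and 92%.

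Markers of other cell types were given as the median over cells of their summed UMIs per 10,000. The 5 stem markers had medians of 6.59 in WT members and 7.66 in cKO members, against 3.26 and 2.62 in the other gated cells. Goblet markers were at 0.478 and 0.163, against 0.410 and 0.212, so the median cell was higher among WT members and lower among cKO members. That is the reverse of the goblet list's median ratios of -0.79 and 0.34. The summed level of that list was lower in members of both libraries, at 1408 and 1519 CPM against 2815 and 1620. Colonocyte markers were at 0.165 and 0, against 0.286 and 0.129, and Paneth markers at 2.11 and 1.54, against 3.04 and 1.76. Enteroendocrine, squamous, T and NK, B and plasma, fibroblast and endothelial markers had a median of 0 in members of both libraries. Myeloid markers had medians of 0.199 in WT members and 0.525 in cKO members, but 1 cKO cell reached 230.06, and the summed level was 31.8 CPM in WT and 285 in cKO. Goblet genes reached 171 UMIs per 10,000 in the highest cKO member.

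Members did not form a single cluster. Gated cells were clustered without the score genes, Mtch2 and sex-linked genes into 22 clusters, which are called by number. Cluster 2 held 120 WT and 107 cKO members, 58.3% and 60.5% of them, and members made up 50.7% of its 448 cells. Cluster 6 held 16 and 28 members, cluster 7 held 25 and 15, and no other cluster held more than 13. Leading genes of cluster 2 included Cdca7, Lrig1, Efna5 and Chit1. The score genes Pdzrn4, Fstl4, Fut9 and Cftr, which took no part in the clustering, were also among them. Leading genes of cluster 7 were mitotic (Ccna2, Birc5, Ube2c) and those of cluster 6 included Hao2, Hsd3b3, Htr4 and Slc26a3. In the neighbour graph of both libraries, members made up a mean of 48.7% of the neighbours of a WT member and 56.8% of those of a cKO member, against means of 4.65% and 4.82% for the other gated cells.

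Members of clusters 2 and 6 reached a high score with different genes. In cluster 2, Lgr5 had 437 CPM in WT and 629 in cKO members, and in cluster 6 it had 64.6 and 44.5. Pdzrn4 had 54.5 and 308 CPM in cluster 2, and members of cluster 6 held no UMI of it, which by the same 3 counts allows up to 4.50 CPM in WT and 2.90 in cKO. For Fstl4 the levels were 441 and 661 CPM in the former and 108 and 285 in the latter. Cftr had the opposite order, with 184 and 194 CPM in cluster 2 and 374 and 430.2 in cluster 6, and so did Htr4, with 29.9 and 25.6 against 203 and 288. The water channel gene Aqp4 likewise had 50.03 and 28.5 CPM in cluster 2, and 149 and 159 in cluster 6. Slc12a2, at 896 and 1054 against 703 and 850 CPM, and Lrig1, at 184 and 220.5 against 224 and 254, differed less. Krt20 stayed at 12.6 CPM or lower in members of both clusters, and the absorptive exchanger gene Slc26a3, a leading gene of cluster 6, had 2 UMIs in its WT members and 0 in its cKO members. Within cluster 2, members were nearer to the 146 WT and 75 cKO cells that were not members than to all other gated cells. Log2 ratios there were 0.17 in WT and 0.80 in cKO for Kcnq1, and 0.38 and 0.46 for Kcne3. For Lrig1 they were 0.93 and 0.99, for Cdca7 0.41 and 0.52, and for Lgr5 0.53 and 1.04. With clusters found in these same cells, the order of genes between and within clusters is a description.

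**Figure D4:**
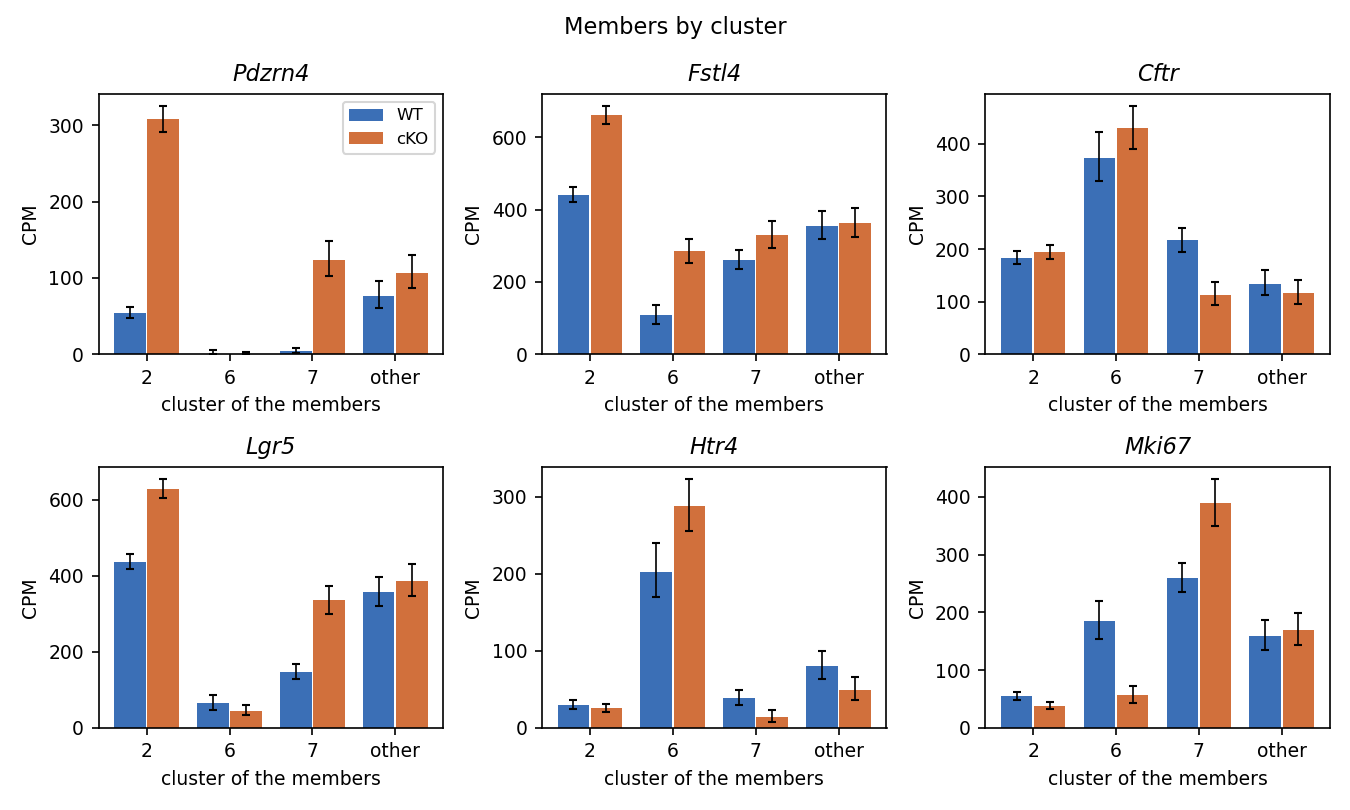
CPM of 6 genes in members of cluster 2 (120 WT and 107 cKO cells), cluster 6 (16 and 28), cluster 7 (25 and 15) and other clusters (45 and 27), WT in blue and cKO in orange, with exact 95% Poisson intervals. Cluster 2 is high for Lgr5 and Fstl4, cluster 6 for Cftr and Htr4, and cluster 7 for Mki67.

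Members were more frequent in cKO. They made up 6.77% (5.91% to 7.73%) of gated cells in WT and 10.1% (8.75% to 11.6%) in cKO, by exact Clopper-Pearson intervals, a difference of 3.35 percentage points (1.67 to 5.09). With every cell thinned to 3000 UMIs before scoring, the median shares over 11 draws were 7.14% in WT and 10.0% in cKO. The difference ran from 2.12 to 4.07 points over the draws. The draw used for the other results on thinned cells gave 7.69% and 10.2%. With ties at the threshold it kept 234 WT and 179 cKO cells, more than the 383 members. Between 265 and 285 of the members were chosen again in those draws.

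The difference in share was not even over the cells. Both libraries held cells with Xist and cells with Y-linked transcripts, and gated cells were split into those with Xist and no Y-linked UMI (Xist-only), with Y-linked UMIs and no Xist (Y-only), with both and with neither. Among Xist-only cells members were 61 of 943 in WT, or 6.47%, and 56 of 292 in cKO, or 19.2%, a difference of 12.7 points (8.01 to 17.9). Among Y-only cells they were 80 of 1146, or 6.98%, and 82 of 1071, or 7.66%, a difference of 0.68 points (-1.56 to 2.93). Among cells with both kinds of transcript they were 7.11% and 13.4%, and whether these are doublets or hold free RNA was not tested. Depth differed between these classes. Xist-only cells outside the members had medians of 15204 UMIs in WT and 29490.5 in cKO, and Y-only cells 27634 and 38630. Depth enters both the score and the call of sex-linked transcripts, and shares by class were not computed on thinned cells. How many mice of each sex entered a pool is not given, so sex and single animals or tumours cannot be told apart.

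Pdzrn4 was split in the same way, but it is a gene of the score and took part in choosing the members. Its split and that of the share are therefore not independent results. Without Pdzrn4 in the score the share differed by 2.63 points over all gated cells, and this was not computed by sex-linked transcripts. In Xist-only members it was at 13.2 CPM in WT, in 2 of 61 cells, and at 392 in cKO, in 33 of 56 cells. In Y-only members it was at 56.5 CPM in WT, in 14 of 80 cells, and at 10.99 in cKO, in 5 of 82 cells. The higher level of the cKO library was thus found in Xist-only members and in members with both kinds of transcript (44.0 and 403 CPM), and Y-only members had the reverse order. Among cells outside the members Pdzrn4 was at 3.27 CPM in WT and 36.3 in cKO Xist-only cells, and at 7.54 and 1.38 in Y-only cells. Lgr5 in members was alike in Xist-only cells, at 463 and 459 CPM, and at 333 and 503 in Y-only cells. Cftr and Slc12a2 stayed within 0.22 on the log2 scale between libraries in either kind of cell.

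**Figure D5:**
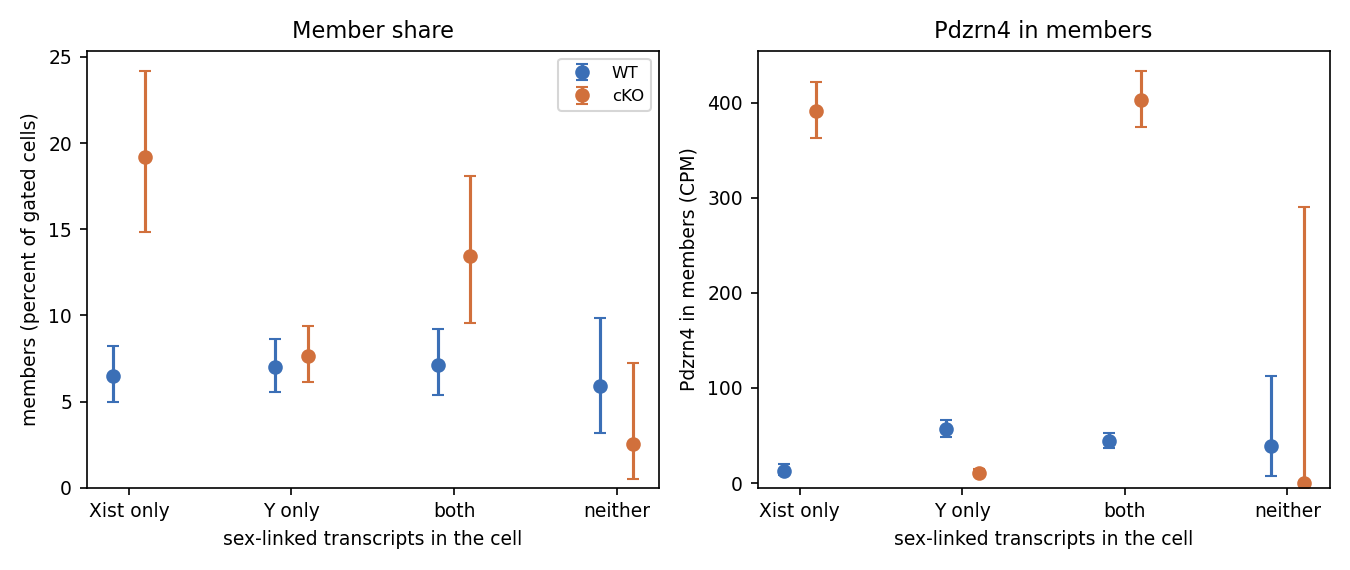
Share of gated cells that are members (left, exact 95% binomial intervals) and Pdzrn4 in members as CPM (right, exact 95% Poisson intervals) by sex-linked transcripts in the cell, WT in blue and cKO in orange. The Xist-only share is 6.47% in WT and 19.2% in cKO while the Y-only shares are 6.98% and 7.66%, and the class with neither transcript holds 13 WT and 3 cKO members.

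Mtch2, the floxed gene, which encodes a protein of the outer mitochondrial membrane, was lower in cKO members. It was at 88.8 CPM (82.2 to 95.8) in WT members and 27.7 (23.96 to 31.9) in cKO members, -1.68 on the log2 scale (-1.92 to -1.45). In the other gated cells it was at 93.7 and 23.5 CPM, a ratio of -1.99. In the leukocyte-like reference it was at 94.7 CPM from 17 WT cells and 46.3 from 143 cKO cells. The Villin promoter is not active in leukocytes, and the reference rests on 32 WT and 110 cKO UMIs (64.8 to 134 and 38.1 to 55.9 CPM). The files hold 1 count per gene, so UMIs from before and after the deleted part cannot be told apart. In Xist-only members Mtch2 was at 88.4 and 43.4 CPM, and in Y-only members at 88.0 and 19.6. Among the other gated cells of cKO it was at 32.8 CPM in Xist-only and 21.3 in Y-only cells.

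Tfrc, the transferrin receptor named in the series title, was at 175 CPM in WT members and 148 in cKO members, a ratio of -0.24 (-0.36 to -0.12) that was 0.06 with thinned cells, against 101 and 109 in the other gated cells, a ratio of 0.10. E2f4, the transcription factor in that title, was at 28.1 and 36.2 CPM in members, a ratio of 0.37 (0.10 to 0.64), and at 26.4 and 27.2 in the others. None of the 27 measured ferroptosis suppressor genes and none of the 22 measured driver genes passed 1.5-fold between the libraries in members, and the medians were -0.03 and -0.07. Over all 9511 measured genes only 2.84% were 1.5-fold higher and 1.64% lower, so none in lists of this size is near that share.

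Over 9511 genes measured in members, 270 (2.84%) were at least 1.5-fold higher and 156 (1.64%) lower in cKO. This balance turned with the top 12% of cells, at 144 higher and 179 lower, and among Y-only cells, at 412 and 560. In the other gated cells, which are more numerous, 103 of 9413 (1.09%) were higher and 120 (1.27%) lower. The median ratio of all measured genes was 0.01 in members and -0.03 in other gated cells. Neither the secretion list, with 0 of 23 genes higher and 1 lower, nor the stem list, with 0 of 30 in either direction, departed from this. All 13 mitochondrially encoded genes were above 0 in members, with a median of 0.22 and none past 1.5-fold, and their median in the other gated cells was 0.20.

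Of absorption genes, 7 of 21 were at least 1.5-fold lower and 1 higher in cKO members, with a median of -0.45, while the median in other gated cells was 0.07. Goblet genes had 5 of 15 higher and 1 lower, with a median of 0.14, and Paneth genes 3 of 8 higher and none lower, with a median of 0.49. Neither direction was stable: over the alternative settings the goblet median ran from -0.37 to 0.78 and the Paneth median from -1.02 to 0.64. Lypd8 had a ratio of -1.07 (-1.13 to -1.01), Car2 of -0.94 (-1.10 to -0.79), from 145 to 75.2 CPM, and Car1 of -2.13. Of 6 MHC class II genes, 4 were at least 1.5-fold lower in cKO members, with a median of -0.68 against -0.29 in the other gated cells. Cd74, the invariant chain, was at 291 CPM in WT members and 179 in cKO members. The list summed to 478 and 291 CPM in members and to 12343 and 10181 CPM in the leukocyte-like reference, and the part of leukocyte RNA in this difference was not tested.

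Among single genes by the rule for named genes, Reg3b came first in cKO over WT members. Reg3b and Reg3g, secreted lectins against bacteria, were at 14.98 and 59.5 CPM in WT members and 79.2 and 179.9 in cKO members, ratios of 2.40 (2.11 to 2.71) and 1.59 (1.44 to 1.75). In WT 5 members held 46.0% of the Reg3b UMIs and in cKO 5 held 53.0%, and its ratio was below 0 with the 5 marker genes alone or without Pdzrn4, Fstl4 or Epha4 in the score. Their ratios in the other gated cells were 0.31 and 0.10. Onecut2, a homeodomain transcription factor, was at 31.8 and 90.7 CPM, a ratio of 1.51, and was also higher outside the members, by 1.17. Tm4sf1, a tetraspanin-like surface protein, was at 54.5 and 130.3 CPM, a ratio of 1.26 against 0.06 elsewhere. Ccnd3, cyclin D3, was at 32.6 and 65.1 CPM, and Vtcn1, an inhibitory ligand of the B7 family, at 33.7 and 59.4. Muc2 had a ratio of 1.12 that rested on few cells, as given above, and was -0.28 with thinned cells and -0.93 within cluster 2. Mdga2, Rbpms, Tshz2, Dach2, Cdh13, Ociad2, Samd12 and Ly6d had ratios of 0.76 or more, but Samd12 was at -0.32 in Xist-only and Dach2 at -0.49 in Y-only members. Some of these also rested on few cells. In WT and cKO members, 5 cells held 42.4% and 55.0% of the Mdga2 UMIs, 53.8% and 39.7% for Ly6d, and 47.4% and 36.5% for Dach2.

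Lowest in cKO members was Mt4, a metallothionein, at 82.3 CPM in WT and 18.8 in cKO, a ratio of -2.13 (-2.42 to -1.86). Of its UMIs, 5 cells held 49.0% in WT members and 49.2% in cKO members. Cxcl10, an interferon-induced chemokine, was at 67.6 and 20.3 CPM, and at 133 and 131 in the leukocyte-like reference. For Cxcl10, 5 cells held 48.8% of the UMIs in WT members and 47.6% in cKO members. Clstn2, a calsyntenin, was at 171 and 58.3 CPM, a ratio of -1.55 that was matched in the other gated cells at -1.83. Crim1 had a ratio of -0.74, and Chit1, a chitinase, one of -0.96 that was 0.38 in Xist-only members. For Chit1, 5 cells held 69.7% of the UMIs in WT members and 47.3% in cKO members, and the ratio of mean per-cell CPM was -0.23. Sval1 had a ratio of -1.22, with 91.7% of its UMIs in 5 WT members and 94.1% in 5 cKO members, and was above 0 without Cftr in the score or in cells of 10000 UMIs or more. Spock2, Pcsk6, Myl7, Tinag, Ethe1 and Cachd1 had ratios between -1.02 and -0.71. For Spock2, 5 cells held 35.9% of the UMIs in WT members and 58.3% in cKO members.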

How the data were processed

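Single-cell RNA was measured in 1 WT and 1 cKO library. The deposited matrices hold whole UMI counts for each gene in each barcode. Per the file headers, the authors wrote them with Cell Ranger 7.2.0. Seurat 3.0 and the mm10 build come from the submitters' processing notes. How barcodes were filtered before deposit is not stated in the sources used here. The members, gene lists and comparisons were chosen with earlier results of these data known.

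From the counts, cells were gated and scored as the report states. UMIs were summed over members and over other gated cells of each library and scaled to CPM. Ratios are log2 after adding 0.5 counts, and genes at 10 CPM or more in either set were measured. Intervals are 95%: exact Poisson for levels, conditional binomial for ratios, Clopper-Pearson for shares and square-and-add for differences of shares. The ratio intervals were tested on simulated counts. No test was made, since cells are not replicates. Alternatives changed the score genes, the share kept, depth and filters, the scaling, doublets, sex-linked calls and clusters, 1 at a time.

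Named genes were the 8 score genes, the 4 gate genes, Mtch2, Tfrc and E2f4. Added were the 25 highest and 15 lowest genes in members over others, at 50 CPM or more in the higher set of each library, ranked by the smaller ratio of the 2 libraries. Added too were the 15 largest cKO over WT ratios each way at 50 CPM or more, with the same direction by per-cell means and at least 0.5 of the leukocyte-like level, and 2 to 4 genes of each of 32 lists. Mitochondrial, ribosomal, immune receptor, haemoglobin, sex-linked and unnamed genes were left out of these ranks. Some genes that the rule names are not reported here. Values from single lists that are named beside their group were picked with values known.

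Clusters used scanpy 1.11.5 and leidenalg 0.10.2 (2000 variable genes, 30 components, 20 neighbours, resolution 1). Doublets were marked with Scrublet at 0.8% per 1000 barcodes and kept. Other tools were numpy 2.4.6, scipy 1.17.1 and pandas 2.3.3. Of 32285 genes, 32158 were matched by identifier to GENCODE M21.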

Additional observations from a re-analysis of the deposited data

Results flagged for a closer look

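For 3 named genes the cKO over WT ratio in members lay at least 2-fold on opposite sides in Xist-only and Y-only cells. The difference was not tested, since each library is 1 pool. Pdzrn4 was 4.86 on the log2 scale in Xist-only members and -2.35 in Y-only members. Ptn, the growth factor pleiotrophin, was -1.10 in Xist-only and 1.00 in Y-only members, at 11.9 CPM in all WT members and 25.4 in all cKO members. Muc2 was 2.31 in Xist-only and -1.16 in Y-only members, and 5 cells held 94.4% of its UMIs in cKO members. No group held 4 or more samples, so no sample could be compared with its group for distance from the others.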

How the results depend on the processing

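No paired analysis was possible because each genotype is 1 library. Of 23 alternatives, 22 were planned and 1, members of the largest cluster only, was chosen after seeing the data. With 1 library per genotype, none of them measures variation between mice. Of 121 single-gene ratios, 99 kept their sign in all settings that gave a value, as did 36 of 81 list medians. All values are log2 ratios unless a count or share is named, those of genes and of Mtch2 are cKO over WT in members unless a library is named, and the cause of the shifts was not tested.

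Among Xist-only cells the share differed by 12.7 points, Mtch2 was -1.02, and 1458 genes were 1.5-fold higher and 684 lower in cKO, and among Y-only cells the values were 0.68 points, -2.16, 412 and 560. Members over others in Xist-only cells gave 0.33 for the Paneth list, -0.74 for the myeloid list, 1.16 for Defa24, 0.89 for Defa17, 3.58 for Defa21 and 2.06 for Defa22 in cKO, and -0.19 for Lmcd1 in WT. Between libraries Xist-only members gave -0.12 for Fstl4, 0.21 for Fut9, -0.15 for B4galnt3, -0.084 for Slc12a2, -0.32 for Samd12 and 0.38 for Chit1. Y-only members gave -2.35 for Pdzrn4, 0.28 for Epha4, -1.16 for Muc2 and -0.49 for Dach2.

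By means of per-cell CPM, Mtch2 was -1.29, 463 genes were higher and 361 lower, and the myeloid list in cKO was -1.93. Within the largest cluster 465 were higher and 314 lower, the myeloid list in cKO was -1.54 and Muc2 -0.93. At 50 CPM or more, 59 genes were 2-fold higher and 118 lower in members over others, 39 were higher and 36 lower in cKO, and the list of Pdzrn, Fstl and matrix relatives was 0.31 in WT against -0.61. With the top 5% of cells, 405 genes were higher and 303 lower in cKO. With the top 12%, 144 were higher and 179 lower, and in WT the goblet list was 0.14 and Defa24 0.51.

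Thinned cells gave 0.10 for the goblet list in WT, 0.26 for the enteroendocrine list in cKO against -1.14, -1.25 for the myeloid list in cKO against 0.86, 0.083 for Epha4, 0.060 for Tfrc and -0.28 for Muc2. The 5 marker genes gave -1.64 for the myeloid list in cKO, 0.18 for Epha4 and -0.039 for Reg3b. Reg3b was -0.43 without Pdzrn4 in the score, -0.16 without Fstl4 and -0.30 without Epha4, which also gave 0.12 for the goblet list in WT. Sval1 was 1.23 without Cftr and 0.16 in cells of 10000 UMIs or more, Epha4 was 0.011 without B4galnt3, and Defa21 was 0.15 in WT without Slc12a2. Without marked doublets the myeloid list in cKO was -1.09.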
